A study of Mus musculus with 4 samples.

Results

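The collagen genes were taken as every gene whose symbol reads Col, a type number, the letter a and a chain number. There were 44 such genes among the 41388 of the files, and all 44 had a row in each library. They were described in 3 classes set by textbook assembly: 11 fibrillar genes, 8 of basement membrane collagens (type IV with types XV and XVIII) and 25 others. RNA had been sequenced from cells sorted for EGFP out of lower thoracic to upper sacral dorsal root ganglia of C57BL/6 mice, in which EGFP reports Ret, a receptor kinase gene of sensory neurons. Every library carried the stage P2. The genotype label of every library is Tg(Ret-EGFP)SJ/, whereas the design text describes EGFP placed in the Ret locus in heterozygotes, so all groups share the reporter and none lacks it.

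There were 4 libraries, each from ganglia pooled from 1 animal. The labels of pool and treatment name a P2 mouse as the source of male A (20 ganglia) and female A (40 ganglia), here the P2 mouse pools. They name an embryo as that of male B and of male C (20 ganglia each), here the embryo pools. The embryo label of male B and male C stands against their stage P2. Any difference of age, colony or library batch goes with the pool description, so these cannot be told apart in this comparison. Both embryo pools are male, so sex cannot be fully told apart from it either. Ret itself stood at 232 and 233 CPM (a gene's share of all gene counts, scaled to the usual library unit) in the P2 mouse pools, male A first, and at 272 and 240 CPM in the embryo pools, male B first. The libraries held 17388493 to 28066448 gene counts, and a floor of 3 counts lay between 0.107 and 0.173 CPM. No molecular identifiers were used, so floors cover counting error only.

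Collagens are secreted proteins whose chains wind into a triple helix, which requires glycine at each helical repeat. Fibrillar collagens are trimmed by proteinases outside the cell and assemble into the fibrils of connective tissue, whereas type IV collagens form the sheet-like network of basement membranes. In peripheral nerve and ganglia, fibroblasts are the best known source of fibrillar collagens and Schwann cells lay down a basement membrane. In bulk RNA from sorted cells, fewer cells of a type and less RNA per cell cannot be told apart.

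Coding exons with the glycine repeat are shown for type I and III chains and for the type IV pair, which are among the collagens with the highest mean RPKM. The capitals mark the first bases GG of glycine codons that recur at every 9th base over at least 5 repeats. Each of the first 3 sequences below is a 54-base exon of a fibrillar chain, made of 6 such repeats without a break. The last 2 are exons of the type IV chains, in which the repeat is interrupted. All are coding strand sequences read from GENCODE transcripts (GRCm38).
Col1a1 (coding exon 8, chr11:94939904-94939957, plus strand): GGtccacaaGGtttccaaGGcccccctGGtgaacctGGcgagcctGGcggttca
Col1a2 (coding exon 8, chr6:4515481-4515534, plus strand): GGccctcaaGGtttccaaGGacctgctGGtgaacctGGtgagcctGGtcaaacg
Col3a1 (coding exon 6, chr1:45325360-45325413, plus strand): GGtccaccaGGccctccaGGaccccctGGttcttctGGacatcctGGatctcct
Col4a1 (coding exon 9, chr8:11244486-11244569, minus strand): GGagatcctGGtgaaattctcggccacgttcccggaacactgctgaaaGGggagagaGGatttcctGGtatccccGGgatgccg
Col4a2 (coding exon 11, chr8:11406813-11406854, plus strand): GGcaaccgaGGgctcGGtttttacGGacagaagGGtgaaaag

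The longest unbroken run of this repeat was 338 repeats in Col1a1, 339 in Col1a2 and 344 in Col3a1, against 40 in Col4a1 and 66 in Col4a2. Over the classes it spanned 216 to 344 in the 11 fibrillar genes (median 338), 30 to 66 in the 8 basement membrane genes (median 41) and 23 to 113 in the 25 others (median 52). The longest run in any of 21857 other protein-coding genes was 81. Exons of exactly 54 bases made up 47.0% of 649 fibrillar coding exons, 4.24% of 377 in basement membrane genes and 15.1% of 978 in the others, against 0.444% of 197142 in other genes. The repeat run set the fibrillar genes apart from both other classes, whose runs overlapped each other. The share of 54-base exons did not, since it was 44.4% in Col22a1 and 43.8% in Col9a2, both among the others, against 41.2% in Col1a1. These features describe the genes and were not set against expression.

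Collagen transcripts were more abundant in the P2 mouse pools than in the embryo pools, and the fibrillar genes carried most of the difference. All collagens together took 1723 and 1598 CPM in the P2 mouse pools, against 342 and 356 CPM in the embryo pools. In RPKM, which divides CPM by exon length in kilobases and so allows genes to be compared, the 11 fibrillar genes summed to 154 and 141 in male A and female A, against 20.1 and 22.8 in male B and male C. The ratio of the 2 group means was 6.89. Fibrillar genes thus made up 76.8% and 74.4% of collagen RPKM in the P2 mouse pools, against 44.3% and 48.5% in the embryo pools.

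The other classes were also higher in both P2 mouse pools, by less. Basement membrane genes summed to 18.2 and 19.3 RPKM in male A and female A, against 9.07 and 9.38 in male B and male C, a ratio of means of 2.03. The 25 other genes summed to 28.5 and 29.1 RPKM in male A and female A, against 16.1 and 14.8 in male B and male C, a ratio of 1.87. Leaving out Col1a1, Col1a2 and Col3a1, the remaining 41 collagens summed to 57.4 and 58.8 RPKM in the P2 mouse pools, against 27.2 and 26.8 in the embryo pools. The classes' summed levels are descriptions of these libraries, and the difference between the classes was not tested.

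**Figure D1:**
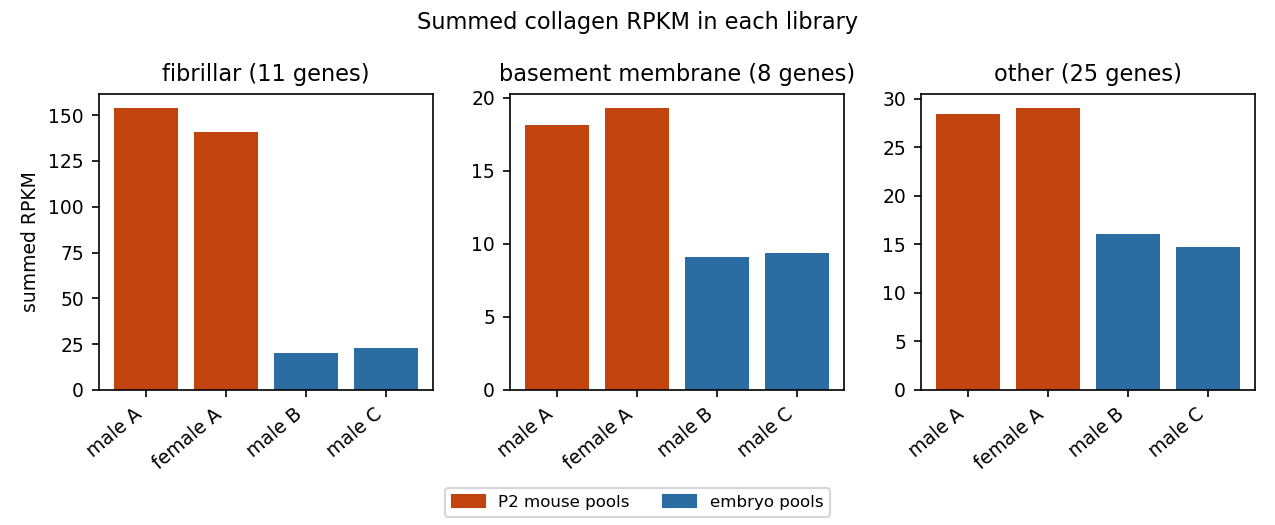
Summed RPKM of the fibrillar, basement membrane and other collagens in each library, with P2 mouse pools in orange and embryo pools in blue; each panel has its own vertical axis from 0, and each bar is 1 library. The fibrillar bars stand at 154 and 141 RPKM in the P2 mouse pools against 20.1 and 22.8 in the embryo pools, and the ratio of means is 6.89, against 2.03 for basement membrane and 1.87 for other collagens.

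Gene by gene, the quasi-likelihood F test of edgeR, adjusted by Benjamini-Hochberg over 15568 genes, called 19 of the 35 tested collagens higher in the P2 mouse pools and 3 lower, and 13 did not pass at 0.05. Of all genes tested, 22.3% were called higher and 20.0% lower. The median log2 fold change was 0.96 over the 35 collagens and 0.02 over all genes tested. By class, 8 of 10 tested fibrillar genes were higher and 1 lower (median 2.39), 5 of 7 basement membrane genes were higher (median 0.96), and 6 of 18 other genes were higher and 2 lower (median 0.61). The CPM of both P2 mouse pools lay above both embryo pools for 26 of the 35, beside 42.5% of all genes, and below both for 3, beside 30.8% of all genes. The 9 collagens too low to test had at most 25 counts in any library. With groups of 2, an exact permutation test over the libraries could not pass 0.05 for any single gene, so these calls rest on a spread that edgeR shares across genes.

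Of the 22 calls, 14 held under every alternative fit in which they were tested. They comprise the 8 fibrillar genes called higher with Col4a1, Col18a1, Col9a1, Col12a1, Col14a1 and Col28a1. With sex as a term, which sets male A against male B and male C, 14 collagens were called higher and 0 lower, beside 13.3% and 10.4% of all genes.

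**Figure D2:**
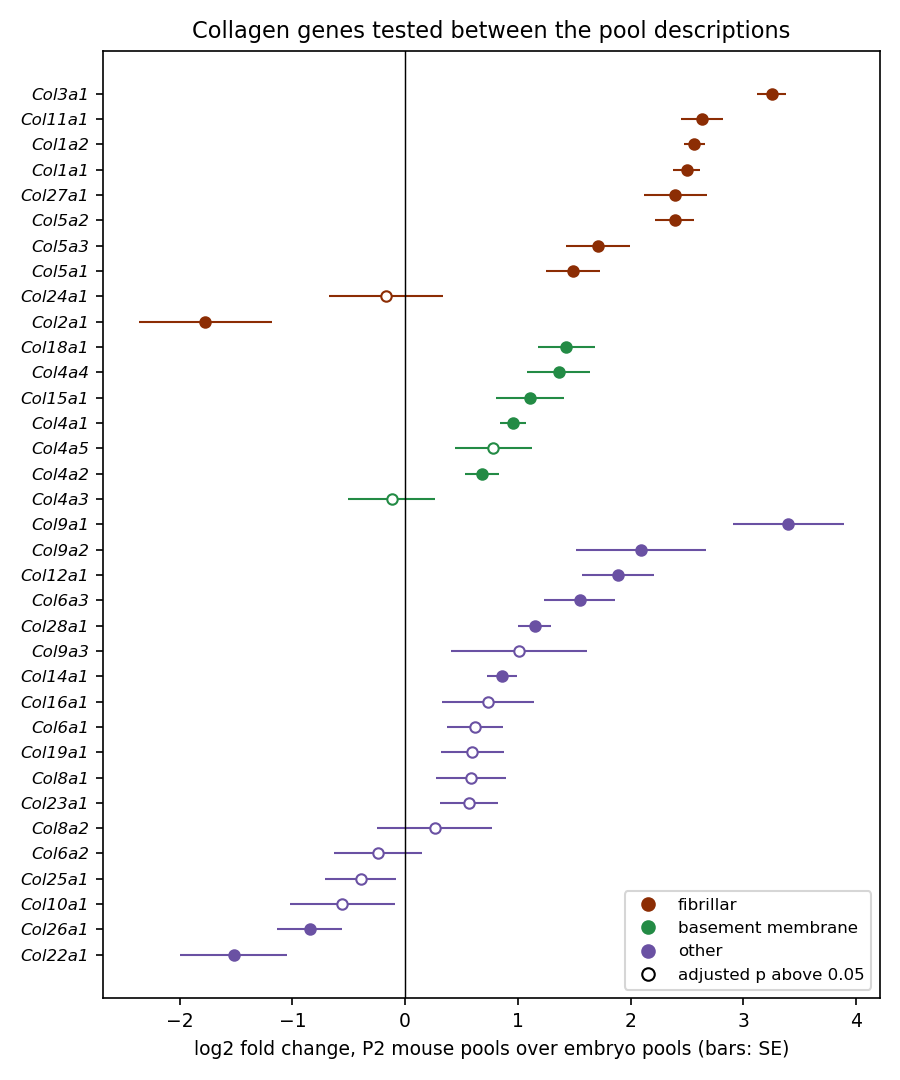
Log2 fold change of the 35 tested collagens, P2 mouse pools over embryo pools, on the horizontal axis, with bars for the edgeR standard error and colours for the class; open circles have an adjusted p above 0.05. Fibrillar genes lead at up to 3.25 for Col3a1, and Col9a1 stands highest of all at 3.40.

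The chains of types I and III, which make up the bulk of connective tissue fibrils, had the 3 highest mean RPKM values over the 4 libraries. In the embryo pools alone Col4a1, at 5.26 and 5.19 RPKM, exceeded Col3a1, and Col28a1, at 4.52 RPKM, exceeded it in male B. Col1a1, the alpha 1 chain of type I collagen, stood at 53.2 and 52.6 RPKM in male A and female A, against 7.78 and 9.53 RPKM in male B and male C. Its partner chain gene Col1a2 stood at 40.0 and 36.5 RPKM in the P2 mouse pools, against 5.86 and 6.07 RPKM in the embryo pools. Col3a1, the single chain of type III collagen, stood at 50.2 and 41.2 RPKM in the P2 mouse pools, against 4.36 and 4.51 RPKM in the embryo pools. For each of these genes both P2 mouse pools lay far above both embryo pools.

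The log2 fold change of Col1a1 was 2.50 (SE 0.12), with an edgeR adjusted p of 9.99e-05. For Col1a2 it was 2.57 (SE 0.097) and for Col3a1 3.25 (SE 0.13), both with an edgeR adjusted p of 5.8e-05. The ratio of Col1a1 to Col1a2 RPKM lay close, at 1.33 and 1.44 in the P2 mouse pools against 1.33 and 1.57 in the embryo pools. The log2 fold change was higher for Col3a1 than for Col1a1. The RPKM of Col3a1 was 0.943 and 0.783 of that of Col1a1 in male A and female A, against 0.561 and 0.473 in male B and male C. The groups do not overlap in that ratio, and no test was run on it. Rank by mean RPKM over the 4 libraries ran Col1a1 (30.8), Col3a1 (25.1) and Col1a2 (22.1). Their order was not fixed, since Col3a1 exceeded Col1a2 in both P2 mouse pools and lay below it in both embryo pools.

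Genes of the minor fibrillar chains, which join types I and III within the same fibrils and help set their diameter, followed at lower levels. Col5a2 had 4.24 and 4.19 RPKM in male A and female A, against 0.649 and 0.833 in male B and male C, and its log2 fold change was 2.39 (SE 0.18, edgeR adjusted p = 0.000141). Col11a1 had 3.41 and 3.13 RPKM in the P2 mouse pools, against 0.434 and 0.536 in the embryo pools, with a log2 fold change of 2.64 (SE 0.19, edgeR adjusted p = 0.000141). Col5a2 stood at 0.0796 of the RPKM of Col1a1 in both P2 mouse pools, against 0.0833 and 0.0874 in the embryo pools, a share close between the groups.

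Col5a1, the chain that pairs with Col5a2 in type V collagen, had a lower log2 fold change. It had 1.10 and 1.21 RPKM in male A and female A, against 0.348 and 0.412 in male B and male C (log2 fold change 1.49, SE 0.24, edgeR adjusted p = 0.00201). The third type V chain gene, Col5a3, had 0.946 and 0.910 RPKM in the P2 mouse pools, against 0.240 and 0.283 in the embryo pools (log2 fold change 1.71, SE 0.29, edgeR adjusted p = 0.00247). Both genes were separated between the groups without overlap. The ratio of Col5a2 to Col5a1 RPKM was 3.84 and 3.46 in the P2 mouse pools, against 1.86 and 2.02 in the embryo pools.

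Col27a1, a fibrillar chain best known from cartilage, had 0.813 and 0.690 RPKM in male A and female A, against 0.149 and 0.114 in male B and male C. Its log2 fold change was 2.40 (SE 0.28, edgeR adjusted p = 0.000538). Its relative Col24a1 had 0.174 and 0.192 RPKM in the P2 mouse pools, against 0.116 and 0.263 in the embryo pools. These groups overlap, and its log2 fold change was -0.17 (SE 0.51, edgeR adjusted p = 0.814).

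Col2a1, the main collagen of cartilage, ran the other way at very low levels, with 4 and 8 counts in male A and female A against 16 and 24 in male B and male C. Its log2 fold change was -1.77 (SE 0.59, edgeR adjusted p = 0.0441), and with sex as a term the adjusted p was 0.171. Of the 6 chondrocyte and bone markers, Acan, Matn1, Comp and Bglap were under 1 CPM in every library. Hapln1, a cartilage link protein gene, stood at 4.83 and 3.67 CPM in the P2 mouse pools against 18 and 15.2 CPM in the embryo pools. The part of such cells in the Col2a1 value was not tested. Col11a2 had at most 6 counts in any library and was not tested.

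**Figure D3:**
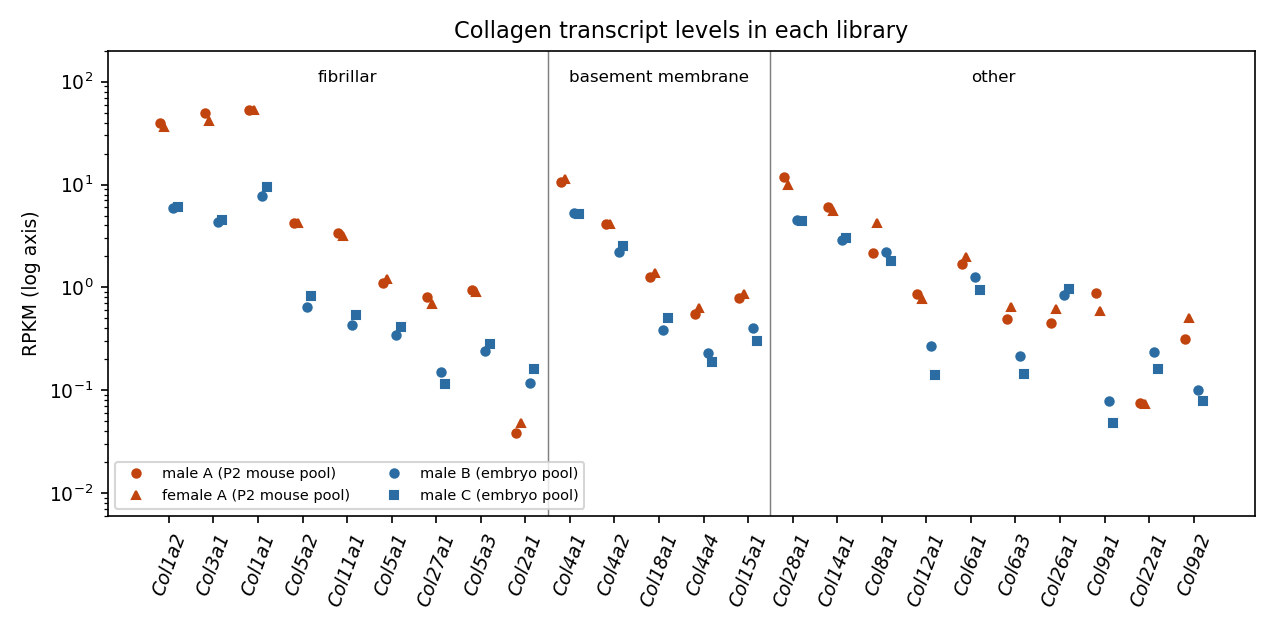
RPKM on a log axis of the 24 collagens with a mean of at least 5 CPM or a call between the pool descriptions, ordered by mean CPM within each class, with 1 symbol per library (orange for P2 mouse pools, blue for embryo pools). Col1a1, Col1a2 and Col3a1 stand between 36.5 and 53.2 RPKM in the P2 mouse pools and between 4.36 and 9.53 in the embryo pools, and for Col8a1 the groups overlap.

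Basement membrane collagens were led by the ubiquitous type IV pair. Col4a1 had 10.7 and 11.3 RPKM in male A and female A, against 5.26 and 5.19 in male B and male C, with a log2 fold change of 0.96 (SE 0.11, edgeR adjusted p = 0.000593). Col4a2 had 4.09 and 4.12 RPKM in the P2 mouse pools, against 2.23 and 2.50 in the embryo pools, with a log2 fold change of 0.68 (SE 0.15, edgeR adjusted p = 0.0088). Both pairs of pools were tight for each gene and did not overlap. The ratio of Col4a1 to Col4a2 RPKM was 2.60 and 2.74 in the P2 mouse pools, against 2.36 and 2.08 in the embryo pools. That of Col1a1 to Col4a1, a fibrillar to a basement membrane chain, was 5.00 and 4.66 against 1.48 and 1.84. With sex as a term the adjusted p of Col4a2 was 0.0733.

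Col4a1 and Col4a2 lie head to head, and their annotated first exons overlap by 22 bases. The shared stretch is shown because reads from it cannot be assigned to either gene without strand information.
Overlap of Col4a1 and Col4a2 (GRCm38, chr8:11312805-11312826, plus strand): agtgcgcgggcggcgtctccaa

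A second head-to-head pair, Col4a3 and Col4a4, encodes chains of the network found in kidney and other specialised basement membranes and lies 71 bases apart. Col4a4 had 0.547 and 0.624 RPKM in male A and female A, against 0.233 and 0.189 in male B and male C (log2 fold change 1.36, SE 0.28, edgeR adjusted p = 0.00646). Col4a3 had 0.213 and 0.443 RPKM in the P2 mouse pools, against 0.310 and 0.359 in the embryo pools (log2 fold change -0.12, SE 0.39, edgeR adjusted p = 0.83). The groups were apart for Col4a4 and overlapped for Col4a3, and the difference between the genes was not tested. Of the exon bases of Col4a3, 5.65% also belong to an annotated antisense gene. With sex as a term the adjusted p of Col4a4 was 0.0600.

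On the X chromosome, Col4a5 had 69 and 95 counts in male A and female A against 38 and 56 in male B and male C, with a log2 fold change of 0.78 (SE 0.34, edgeR adjusted p = 0.101). Its neighbour Col4a6 had 2 and 25 counts in male A and female A and none in male B or male C, so nearly all its counts came from the female library.

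The multiplexins, basement membrane proteoglycans whose C-terminal fragments include endostatin, were both higher. Col18a1 had 1.26 and 1.37 RPKM in male A and female A, against 0.390 and 0.509 in male B and male C (log2 fold change 1.43, SE 0.25, edgeR adjusted p = 0.00321). Col15a1 had 0.788 and 0.859 RPKM in the P2 mouse pools, against 0.403 and 0.304 in the embryo pools (log2 fold change 1.11, SE 0.30, edgeR adjusted p = 0.0199). Neither gene's groups overlapped. With sex as a term the adjusted p of Col15a1 was 0.113.

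Among the other collagens, Col28a1 was the most abundant. It encodes a von Willebrand factor A domain collagen known from peripheral nerve, where it lies around non-myelinating glia and nodes of Ranvier. It had 11.7 and 9.84 RPKM in male A and female A, against 4.52 and 4.46 in male B and male C, with no overlap (log2 fold change 1.15, SE 0.14, edgeR adjusted p = 0.000718). By mean RPKM it averaged 7.64, next in order below Col4a1 at 8.10. Their order was not fixed either, since Col28a1 exceeded Col4a1 in male A only.

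Fibril-associated collagens sit on the surface of fibrils. Col14a1 had 6.08 and 5.56 RPKM in male A and female A, against 2.88 and 3.05 in male B and male C (log2 fold change 0.86, SE 0.14, edgeR adjusted p = 0.00201). Col12a1, its close relative, had 0.854 and 0.779 RPKM in the P2 mouse pools, against 0.269 and 0.140 in the embryo pools (log2 fold change 1.89, SE 0.32, edgeR adjusted p = 0.00267). Both P2 mouse pools exceeded both embryo pools for each gene.

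The type IX chains, which decorate type II fibrils in cartilage, were low throughout. Col9a1 had 77 and 83 counts in male A and female A against 9 and 6 in male B and male C, and showed the highest log2 fold change of the tested collagens, 3.40 (SE 0.50, edgeR adjusted p = 0.00137). Col9a2 had 17 and 44 counts in the P2 mouse pools against 7 and 6 in the embryo pools (log2 fold change 2.10, SE 0.58, edgeR adjusted p = 0.0215, and 0.142 with sex as a term). Col9a3 had 16 and 34 counts in the P2 mouse pools against 16 and 7 in the embryo pools (log2 fold change 1.01, SE 0.60, edgeR adjusted p = 0.214). Counted as CPM, none of the 3 overlapped between the groups, while Col2a1, the fibril partner of type IX collagen, was lower in the P2 mouse pools. Of the exon bases of Col9a3, 6.07% also belong to the antisense gene Tcfl5.

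Col22a1, a fibril-associated collagen of tissue junctions such as that of muscle and tendon, had 12 and 19 counts in male A and female A against 49 and 37 in male B and male C. Its log2 fold change was -1.52 (SE 0.47, edgeR adjusted p = 0.0341), and the adjusted p was 0.168 with sex as a term. Col26a1 had 46 and 102 counts in the P2 mouse pools against 112 and 139 in the embryo pools (log2 fold change -0.85, SE 0.29, edgeR adjusted p = 0.0464, and 0.0954 with sex as a term). In CPM both genes were lower in both P2 mouse pools. The 5 skeletal muscle markers summed to 4.89 and 5.13 CPM in the P2 mouse pools, against 10.1 and 9.28 CPM in the embryo pools. Acta1 made up most of that sum, since Myh3, Ckm, Tnnt3 and Myod1 were under 1 CPM in every library. Acta1 was called lower (-0.97), but not with offsets for GC content and length (-0.37). The part of muscle cells in the Col22a1 value was not tested.

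Type VI collagen forms beaded microfibrils from chains that assemble together, and only 1 of its 3 tested chain genes passed the test. Col6a3 had 0.490 and 0.649 RPKM in male A and female A, against 0.218 and 0.144 in male B and male C (log2 fold change 1.55, SE 0.32, edgeR adjusted p = 0.00627, and 0.0677 with sex as a term). Col6a1 had 1.69 and 1.96 RPKM in the P2 mouse pools, against 1.26 and 0.944 in the embryo pools (log2 fold change 0.62, SE 0.25, edgeR adjusted p = 0.0832). With offsets for GC content and length, Col6a1 was called higher (0.93, edgeR adjusted p = 0.028). Col6a2 had 45 and 120 counts in the P2 mouse pools against 110 and 68 in the embryo pools (log2 fold change -0.24, SE 0.39, edgeR adjusted p = 0.658), and its groups overlapped. The ratio of Col6a1 to Col6a3 RPKM was 3.45 and 3.02 in the P2 mouse pools against 5.79 and 6.54 in the embryo pools. Col6a4, Col6a5 and Col6a6 had at most 9 counts in any library.

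Short-chain collagens form hexagonal lattices, as in vessel walls and the corneal endothelial membrane. Col8a1 had 2.16 and 4.26 RPKM in male A and female A, against 2.19 and 1.79 in male B and male C. Female A alone stood apart, male A lay within the range of the embryo pools, and the log2 fold change was 0.58 (SE 0.31, edgeR adjusted p = 0.167). Neither Col8a2 nor Col10a1, the hypertrophic cartilage collagen, passed the test, with log2 fold changes of 0.26 and -0.56. The transmembrane collagens that could be tested, Col23a1 and Col25a1, had log2 fold changes of 0.57 and -0.40 and did not pass either. The fibril-associated genes Col16a1 and Col19a1, had log2 fold changes of 0.74 and 0.59 without passing. Col7a1, Col13a1, Col17a1 and Col20a1, which serve the skin's anchoring fibrils, cell junctions or other sites, had at most 5 counts in any library.

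Several collagens lie next to each other, and the estimates of neighbours did not always share a direction or size. Differences between neighbours were not tested. Col3a1 and Col5a2, 24614 bases apart on chromosome 1, had log2 fold changes of 3.25 and 2.39. Col9a1 and Col19a1, 9205 bases apart on the same chromosome, had 3.40 and 0.59. For Col6a1 and Col6a2, 85161 bases apart on chromosome 10, the values were 0.62 and -0.24, and neither gene was called.

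The promoter of Col3a1, the fibrillar gene with the highest log2 fold change, is shown as the 150 bases before the RefSeq start (GRCm38.p6). Capitals mark a match to the letters TATAAA. The match lies nearer the far end of the stretch than the start, and whether it acts as a TATA box was not tested.
Col3a1 promoter (chr1:45311388-45311537, plus strand): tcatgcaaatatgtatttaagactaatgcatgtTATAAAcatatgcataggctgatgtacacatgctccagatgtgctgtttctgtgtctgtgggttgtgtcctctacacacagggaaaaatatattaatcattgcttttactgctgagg

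Promoters were at hand for 35 of the 44 collagen genes and 8 of the 11 fibrillar ones. Col1a1, Col5a2, Col2a1 and Col14a1 are among those without one, so the shares do not cover them. In the 250 bases before the start, on both strands, TATAAA was found in 5 of 38 promoters of these 35 genes, or 13.2%, against 12.4% of 32851 promoters in all. CCAAT was found in 13 collagen promoters (34.2%, against 33.8% of all) and GGGCGG in 22 (57.9%, against 32.7% of all). Col3a1 held TATAAA and neither of the other motifs. A match here describes letters in a window, not a bound site.

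Other genes of the collagen pathway were taken step by step. Their counts are read against the 22.3% of all genes called higher and 20.0% called lower, or the 13.6% and 18.7% with offsets for GC content and length. Inside the cell, where prolines and lysines are hydroxylated and chains are folded, 4 of 18 tested genes were higher and 4 lower (median log2 fold change 0.14), close to the shares of all genes. With the offsets 6 were higher and 2 lower. Plod2, a lysyl hydroxylase that prepares crosslinks, stood at 26.3 and 26.0 CPM in the P2 mouse pools against 2.56 and 3.82 in the embryo pools, a log2 fold change of 2.92 (SE 0.23, edgeR adjusted p = 0.000167). Its log2 fold change was the highest of the list, and its groups do not overlap. Serpinh1, the collagen chaperone HSP47, was also higher (0.53), as were Mia3, which loads collagen for export (1.00), and Fkbp10 (1.03). The genes called lower were the folding catalyst Ppib (-0.48), the collagen galactosyltransferase Colgalt1 (-0.56), P4ha2 (-1.26) and P4ha3 (-1.20), the last pair encoding prolyl hydroxylase subunits. With the offsets only P4ha2 of these kept its call, and the adjusted p was 0.228 for Ppib, 0.283 for Colgalt1 and 0.104 for P4ha3. P4hb, the most abundant of the list at 388 and 331 CPM in the P2 mouse pools against 252 and 343 in the embryo pools, did not pass (0.16), but was called higher with the offsets (0.53, edgeR adjusted p = 0.0216).

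Outside the cell, 6 of 12 tested processing and crosslinking genes were higher and 0 lower, beside 22.3% and 20.0% of all genes (median log2 fold change 0.69), and the counts were also 6 and 0 with the offsets. Lox, the lysyl oxidase that crosslinks fibrils, had 9.09 and 10.9 CPM in the P2 mouse pools against 2.25 and 1.57 in the embryo pools, a log2 fold change of 2.28 (SE 0.29, edgeR adjusted p = 0.000709). Loxl3 (1.89), the procollagen proteinase gene Adamts3 (0.48) and Pcolce2 (0.66), which enhances removal of the C-propeptide, were also called higher, and Pcolce (0.29) did not pass. With the offsets Pcolce2 lost its call (0.39, edgeR adjusted p = 0.189).

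Of 10 tested fibril-binding proteins, 6 were higher and 0 lower (median 0.84), and with the offsets 4 were higher and 1 lower. Sparc, a collagen-binding matricellular protein, had 1309 and 1118 CPM in the P2 mouse pools against 486 and 536 in the embryo pools (log2 fold change 1.13). Postn, the gene of periostin, reached 2.31 and Ogn 2.29, and with the offsets 1.29 and 1.62. The proteoglycan gene Dcn turned with the scaling, from called higher at 0.29 (edgeR adjusted p = 0.0367) to called lower at -0.30 with the offsets (edgeR adjusted p = 0.0383).

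Of 8 tested collagen receptors, 4 were higher and 0 lower (median 0.89), namely the integrin subunits Itgb1 (0.91) and Itga2 (1.46), the receptor kinase Ddr2 (1.38) and the inhibitory receptor Lair1 (2.05), whereas Ddr1 (-0.06) did not pass. With the offsets Ddr2 (0.82, edgeR adjusted p = 0.133) and Lair1 (1.65, edgeR adjusted p = 0.0634) lost their calls, which left 2 higher. Of 8 tested collagen-degrading enzymes and inhibitors, Timp3 (0.70) and Mmp8 (2.68) were higher, Ctsk was lower (-0.86) and Timp2 (0.07) did not pass, with a median of 0.08 and counts near the shares of all genes. With the offsets Timp3 (0.27, edgeR adjusted p = 0.0793) and Ctsk (-0.64, edgeR adjusted p = 0.0655) lost their calls.

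Markers of the cells that could bring collagen RNA into the sort were set beside these values. Calls in all the marker lists are read against 22.3% of all genes called higher and 20.0% lower. With the offsets these shares are 13.6% and 18.7%. The 10 fibroblast markers, chosen without collagens, summed to 213 and 218 CPM in the P2 mouse pools against 183 and 175 in the embryo pools. Of 7 tested, 3 were higher and 1 lower, and with the offsets 1 was higher (Pdgfra) and 2 lower, which is near the shares of all genes. Dcn, whose direction turned with the offsets, made up most of that sum at 167 and 161 CPM against 122 and 126, Pdgfra stood at 5.69 and 5.45 CPM against 1.5 and 0.683, Mfap5 at 21.5 and 28.3 CPM against 43.2 and 32.6, Dpt, Twist1 and Fap were under 1 CPM in every library and Twist2 had no count. The 12 Schwann cell markers summed to 8230 and 5254 CPM in the P2 mouse pools against 3322 and 3291 in the embryo pools, with 10 higher, 1 lower (S100b) and a median log2 fold change of 2.12. These counts were also 10 and 1 with the offsets. Pmp22, at 4218 and 2719 CPM against 2471 and 2359, made up the largest part of the Schwann cell sum and was not called (0.41, edgeR adjusted p = 0.108). The part of these cells in the collagen values was not tested.

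The 7 endothelial markers gave a sum of 9.55 CPM in male A and 21.4 in female A, against 5.56 and 4.34 in male B and male C. Among 6 tested, 5 were higher, beside 22.3% of all genes. With the offsets 2 were higher, beside 13.6% of all genes, and Kdr, Flt1 and Emcn lost their calls. The 7 mural markers summed to 96.7 and 88.9 CPM in the P2 mouse pools against 98.2 and 89.9 in the embryo pools, with 0 higher and 1 lower. Satellite glia markers summed to 940 and 910 CPM against 560 and 912, a sum that joins opposite directions. Of 7 tested, Ednrb (1.62) and Kcnj10 (2.20) were higher and Fabp7 (-1.30) and Glul (-0.59) lower, and the offsets left 2 higher and 2 lower. Perineurial and meningeal markers summed to 55.6 and 60.8 CPM against 63.1 and 69.9. Of 4 tested, Cldn1 was higher and Slc2a1 lower, and Cldn1 lost its call with the offsets. Macrophage markers summed to at most 5.81 CPM. The 10 sensory neuron markers summed to 7351 and 7759 CPM in the P2 mouse pools against 13139 and 12279 in the embryo pools. Of these, 7 were lower and 0 higher, and 6 were lower with the offsets. Uchl1, Prph and Rbfox3 then lost their calls, and Elavl4 and Ret gained them. For Ret the log2 fold change was -0.25 (edgeR adjusted p = 0.066), and -0.33 with the offsets (edgeR adjusted p = 0.0341). Which of these cells held the collagen RNA was not tested.

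**Figure D4:**
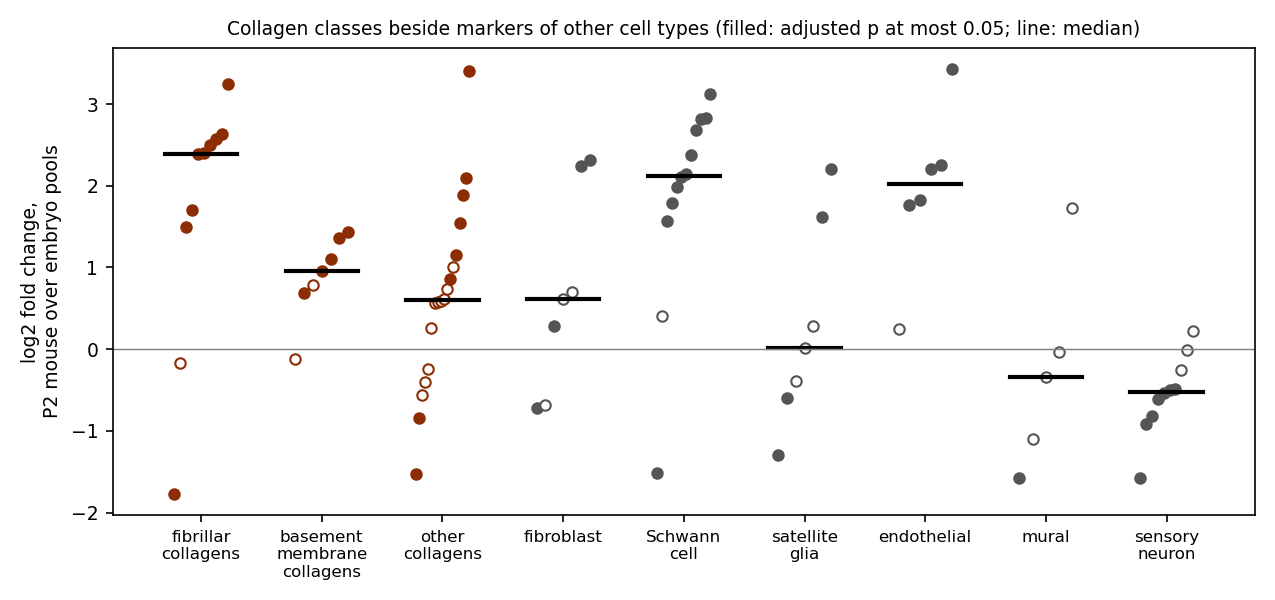
Log2 fold change, P2 mouse pools over embryo pools, of each tested gene in the 3 collagen classes (brown) and in 6 lists of cell type markers (grey); filled points have an adjusted p of at most 0.05 and lines are medians. The median is 2.39 for fibrillar collagens, 0.62 for fibroblast markers without collagens, 2.12 for Schwann cell markers and -0.52 for sensory neuron markers.

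Base composition also moved with the comparison. Across 15474 genes, themselves no replicates, the log2 fold change had a Spearman correlation of -0.444 with GC content. The tested collagens had a median GC content of 55.1% (45.9% to 62.7%). With offsets for GC content and length the median log2 fold change of collagens was 1.09, with 20 called higher and 1 lower, beside 13.6% and 18.7% of all genes, and that of the fibrillar class was 2.18.

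The series title sets male against female, and no collagen separated them by the test. Over 16708 genes, the same edgeR test called 0 genes in either direction (0.0% of them), with 129 genes (0.772%) at an unadjusted p under 0.05. Of 37 tested collagens 0 were called, 2 had an unadjusted p under 0.05, and DESeq2 and limma-voom called 0. The median log2 fold change of female A over the males was 0.69. It was 0.09 once pool description entered the fit, which sets female A against male A, and then 0 collagens were called beside 0.0% of all genes higher and 0.0239% lower. With 1 female library, whose spread had to be taken from the males, the absence of calls is no evidence of equal levels. Without the pool term, the males span both pool descriptions, so that difference enters their spread. The biological coefficient of variation, edgeR's common spread between libraries, was 0.394 in that fit, against 0.162 in the fit of pool descriptions. Female A was also the only pool of 40 ganglia, against 20 for each male, so sex and pool size cannot be told apart.

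The genes at an unadjusted p under 0.05 were Col8a1 and Col4a6. Col8a1 stood at 21.8 CPM in female A against 9.16 to 11.2 CPM over the 3 males, above each of them, with a log2 fold change of 0.97 (SE 0.36) without the pool term and 0.96 (SE 0.31) with it. Col4a6 had 25 counts in female A against 2 in male A and none in male B or male C, and its log2 fold change of 4.48 (SE 1.55) was 2.88 (SE 1.55) with the pool term. The edgeR adjusted p was 0.951 for both without the pool term. Within the P2 mouse pools, the ratio of female A to male A CPM lay between 0.668 (Col9a1) and 1.97 (Col8a1) for the 24 collagens named by level or call, and was 0.988 for Col1a1, 0.914 for Col1a2 and 0.821 for Col3a1.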

How the data were processed

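Per the submitters' processing notes, reads were assigned to genes with featureCounts 1.4.5 (Subread) on GRCm38.p2. The deposited count values are whole reads per gene, the deposited CPM values are counts scaled by each library's total of gene counts, and the deposited RPKM values are CPM per kilobase of exon, as recomputed here from the counts. Not given in the sources used here are the aligner, annotation release and strand setting. Symbols came from GENCODE M21 for 40254 genes (97.3%).

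Counts were tested with edgeR 4.0.16 (quasi-likelihood F test, TMM scaling, filterByExpr with a minimum count of 10 and total of 15, Benjamini-Hochberg adjustment over all genes at 0.05) in R 4.3.3, on 4 libraries with 2 residual degrees of freedom in the main fits. Fits with sex or pool description as an added term had fewer, since female A and male A were then each fitted exactly. The p-values rest on the spread between these libraries, which edgeR shares across genes. Alternatives were each library left out, other size factors (relative log expression), low counts kept, only genes averaging at least 5 CPM, sex or pool description as a term, robust empirical Bayes, DESeq2 1.42.0, limma-voom (limma 3.58.1) and GC and length offsets (mgcv 1.9.3). The main fits were also run on simulated counts with known fold changes. These had a common spread for all genes and no trend with GC content, so they do not cover such features of these data.

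Values in every library are given for the 24 collagens with a mean of at least 5 CPM or a call between the pool descriptions. Other genes named are the 3 most abundant of each list and up to 4 called in each direction, and the remaining collagens and markers were named after their values were seen. Members and lists were chosen with earlier results of these data known. Of the collagens, 11 share any word of 50 bases with another gene, at most 3.54% of their words.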

Additional observations from a re-analysis of the deposited data

How the results depend on the processing

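All 24 collagens given in every library kept their direction between the pool descriptions under each alternative that tested them. Of these alternatives, sex as a term and leaving out female A make practically the same contrast, so they are not separate checks. A mean of at least 5 CPM kept 15 collagens in the test. It took out all 3 genes called lower, so 0 lower follows from the filter, and left 3 basement membrane and 3 other genes higher. Sex as a term left 0 lower and 2 basement membrane genes higher, DESeq2 left 0 lower, and GC and length offsets left 1 lower. These offsets turned the split of all genes to 2109 higher and 2900 lower, against 3472 and 3112 in the fit reported. Leaving out 1 library gave 14 to 21 collagens higher, 0 to 1 lower, 8 fibrillar, 2 to 6 basement membrane and 4 to 7 other genes higher, while 11.8% to 22.1% of all genes were called higher and 10.3% to 20.1% lower. Without female A, the basement membrane count was 2. Without male A, 18 collagens were called higher in the female, where sex and pool description are the same contrast. With the pool description as a term, Col1a1, Col1a2 and Col3a1 turned to -0.037, -0.15 and -0.30 in the female, against 1.11, 1.03 and 1.03 without it. TMM scaling of the RPKM sums moved the basement membrane mean of the embryo pools to 9.60 from 9.23 and the mean of other collagens in the P2 mouse pools to 27.7 from 28.8. Apart from the filter, the causes were not tested. No paired analysis was possible because the labels give the groups no shared replicate numbers. Low collagens such as Col2a1, Col22a1 and Col9a2 rest on few counts, and calls among them are limited by depth.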
